A study of Mus musculus with 12 samples.

Results

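Thyroid hormone activation, transport and reception in mouse liver were followed through 6 genes, chosen by symbol from a table of 41128 genes: Dio1, Thra, Thrb, Slc16a10, Ttr and Klf9. All 6 were found and all 6 passed the filter on low values that the test across genes used (a mean normalized read count of at least 10, met by 11782 genes). They were chosen with the difference between germ-free and conventionalized livers in these libraries already known, so that difference is described for them below and not tested. RNA was sequenced from the livers of 12 mice of the inbred strain C57BL/6, all born germ-free and killed at 6 weeks of age. The 6 germ-free mice (GF) stayed in sterile isolators, and the 6 conventionalized mice (CV), their littermates, were moved at weaning, on about day 21, to cages with used bedding for 3 weeks. Each condition had 3 males and 3 females by the labels. No transgene or drug was used, and the labels do not tell which mice shared a litter or a cage. The CV mice differed from the GF mice in housing as well as in microbes, and the effects of the 2 cannot be told apart.

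The thyroid secretes mostly thyroxine, a prohormone that becomes active when a deiodinase removes an outer-ring iodine to give triiodothyronine. In liver this step is carried out by the type 1 deiodinase, a selenoprotein encoded by Dio1, which also clears inactive forms of the hormone. Triiodothyronine binds the nuclear receptors TRα (Thra) and TRβ (Thrb), of which TRβ is the main hepatic form, and liver Dio1 is itself a widely used marker of hormone action at TRβ.

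Values are read counts that the submitters divided by 1 size factor per library, here called normalized read counts. They came from 5993619 to 15290835 reads per library. A few abundant loci took much of each library, and this moved with condition. They were 7: both mitochondrial ribosomal RNA genes, Lars2 and Mir6236, taken by name, and 3 predicted genes with over 1% of the reads in any library. Other genes with established symbols were not put to this 1% rule, so the set does not hold every gene above it. The 7 loci took 41.8 to 69.4% of the reads in GF libraries and 5.39 to 21.9% in CV libraries. The library labelled CV male 3 went against its sex label: its normalized read count of Xist, the RNA of the inactive X chromosome, was 2382, and it had 0 reads of Y-linked genes among 8890529, which allows a share of up to 3.37e-05% (counting error only). It stayed in its labelled group. Where leaving it out ended a call on a named gene or clearly moved a member's value, this is said beside the result. Nr1d1, named below, was not checked in this way. Hepatocyte markers fitted the labelled tissue: 6 of 6 were measured, and their summed normalized read count ranged from 93909 to 374427 in GF and from 307875 to 511614 in CV livers, with medians of 204278 and 408958. Limma called 3 of the 6 higher in CV and 0 lower, against 32.3% and 28.7% of all genes tested. Alb made up much of the sum, with means of 111375 in GF and 219232 in CV livers. The sum moved in the direction of Dio1, Klf9, Slc16a10 and Ttr, and the part of the markers in the values of these members was not tested. In bulk tissue, fewer cells of a type and less RNA per cell cannot be told apart.

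Dio1 differed most between the conditions. The gene (ENSMUSG00000034785) lies on the reverse strand at chr4:107291465-107307169 in GENCODE release 21 on GRCm38. In GF males its normalized read counts were 394, 564 and 563, and in CV males they were 2643, 1763 and 2236. In GF females they were 305, 423 and 249, against 2429, 2832 and 2912 in CV females. Every CV library therefore lay above every GF library, with a gap from 564 to 1763. Of all genes tested, 18.6% showed CV above GF without overlap in each sex, and since the choice of Dio1 used this contrast nothing is read from that share. On the log2(value + 1) scale, CV exceeded GF by 2.61 ± 0.18 (SE) over both sexes, a 6.09-fold higher value. The difference was 2.12 ± 0.26 in males and 3.09 ± 0.26 in females, and 2.11 in males without the library labelled CV male 3. Both sexes lay beyond the 95th percentile of all genes tested, 1.26 in males and 2.04 in females. The means were 507 ± 97.8 (SD, n = 3) in GF males, 2214 ± 440 in CV males, 326 ± 88.7 in GF females and 2724 ± 259 in CV females. Dio1 was read deeply, with 130 to 5775 reads per library.

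Klf9 was the other member with the libraries of the conditions apart in both sexes. It encodes a zinc finger transcription factor that thyroid hormone and glucocorticoids induce in several tissues, and it lies at chr19:23141226-23168134 (ENSMUSG00000033863, forward strand). GF males had normalized read counts of 570, 781 and 547, and CV males 1003, 915 and 1068. GF females had 642, 864 and 550.1, and CV females 1016, 1105 and 1072. The highest GF value, 864, was below the lowest CV value, 915. As given for Dio1, 18.6% of genes tested showed CV above GF without overlap in each sex, and nothing is read from that share. CV exceeded GF by 0.66 ± 0.17 over both sexes (log2), which is 1.58-fold, with 0.67 ± 0.24 in males and 0.66 ± 0.24 in females. With libraries scaled to reads outside the abundant loci, the difference over both sexes was 0.20. The CV livers were also close together, at 1030 ± 67.8 (SD, n = 6), whereas the GF livers were at 659 ± 134.

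The bases upstream of these members are shown because Dio1 and Klf9 were higher in CV in the same livers while Thrb, the receptor, was not. They are the 250 bases before the RefSeq transcription start (GRCm38.p6) on the gene's own strand, and 4 of the 6 members had an entry (Thra and Ttr had none). Capitals mark AGGTCA, the core hexamer that thyroid hormone receptors and other nuclear receptors bind, and GGGCGG, the GC box of Sp and Klf factors, each searched on both strands. The Dio1 window is chr4:107307169-107307418, the Klf9 window chr19:23140976-23141225 and the Thrb window chr14:17660710-17660959.
Dio1: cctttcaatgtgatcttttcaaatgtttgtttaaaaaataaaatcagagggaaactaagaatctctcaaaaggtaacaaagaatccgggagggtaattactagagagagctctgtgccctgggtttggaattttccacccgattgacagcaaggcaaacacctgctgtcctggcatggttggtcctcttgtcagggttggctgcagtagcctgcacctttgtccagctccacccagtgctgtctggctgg
Klf9: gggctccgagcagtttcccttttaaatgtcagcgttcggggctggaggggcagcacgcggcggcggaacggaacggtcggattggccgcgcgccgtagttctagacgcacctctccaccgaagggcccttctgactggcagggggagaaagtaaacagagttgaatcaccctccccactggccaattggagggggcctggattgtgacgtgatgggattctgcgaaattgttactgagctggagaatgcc
Thrb: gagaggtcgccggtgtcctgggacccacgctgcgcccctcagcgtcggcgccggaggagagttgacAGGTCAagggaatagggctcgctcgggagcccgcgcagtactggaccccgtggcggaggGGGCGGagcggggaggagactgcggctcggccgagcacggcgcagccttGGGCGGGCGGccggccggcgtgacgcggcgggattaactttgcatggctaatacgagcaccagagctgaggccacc
The windows of Dio1 and Klf9 held 0 matches to either motif, and their GC contents were 46.8% and 59.6%. The Thrb window held 1 AGGTCA, 184 bases before the start, and 3 GC boxes, of which those at -76 and -72 overlap, with a GC content of 71.6%. A second annotated Thrb start (upstream window chr14:17981394-17981643) had a GC content of 44% and 0 matches. The Slc16a10 window (chr10:40142255-40142504) had 3 GC boxes, 0 AGGTCA and a GC content of 64.4%. Among 32851 promoter windows of this length, 14% held AGGTCA and 32.7% held GGGCGG, and the median GC content was 52.4%. These matches describe letters only, and a window without one says nothing about binding elsewhere.

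**Figure D1:**
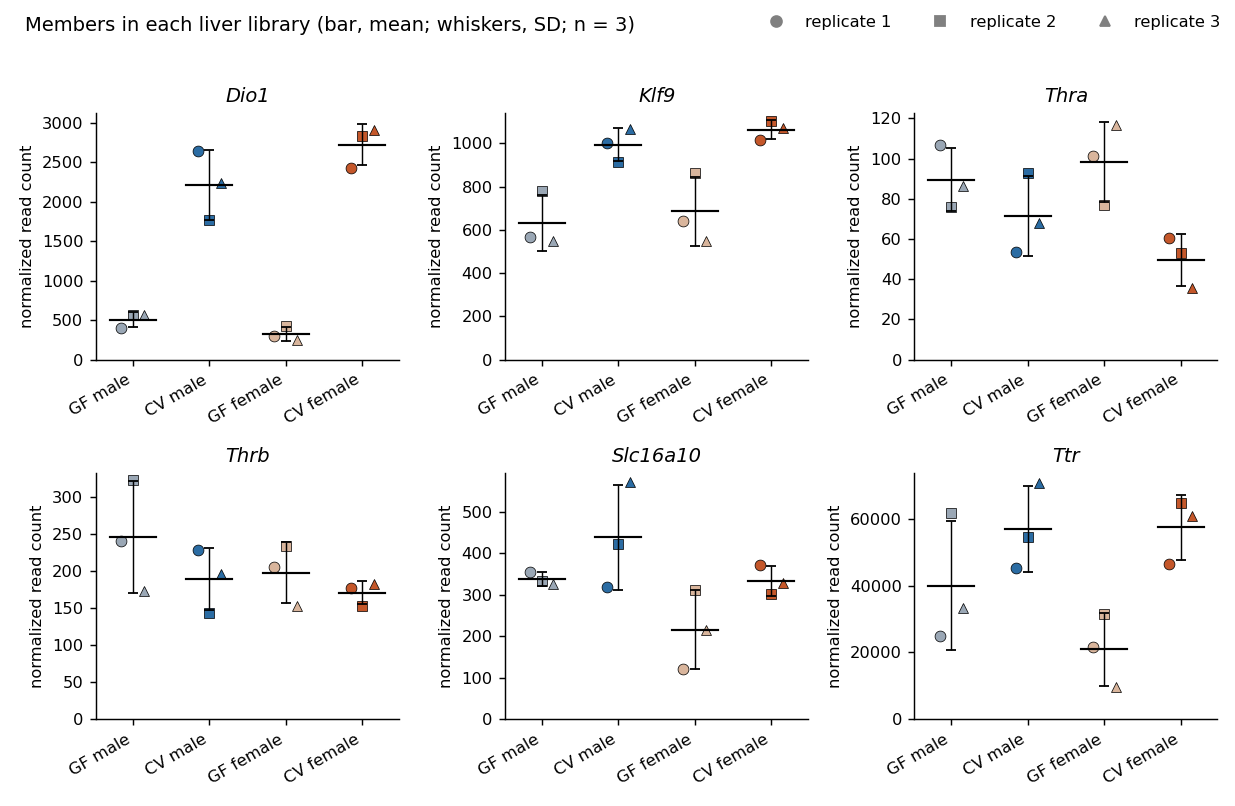
Normalized read counts of the 6 members in each of the 12 livers (vertical axes start at 0), with the mean and SD of each group of 3. Symbols show the replicate number in the label. Dio1 and Klf9 separate CV from GF in both sexes, with gaps from 564 to 1763 and from 864 to 915, whereas the groups overlap for Thrb and Slc16a10. Of all genes tested, 18.6% have CV above GF without overlap in each sex.

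The receptors did not share the pattern of Dio1. Thra (ENSMUSG00000058756, chr11:98740638-98769006, forward strand) had normalized read counts of 107, 75.9 and 86.4 in GF males and of 53.6, 93.0 and 68.1 in CV males, which overlapped. GF females had 101, 77.1 and 117, and CV females had 60.6, 53.1 and 35.5, all below the GF females (31% of genes tested had CV females below GF females in this way). CV minus GF was -0.34 ± 0.29 in males and -0.98 ± 0.29 in females, a 1.98-fold lower value in CV females. Thra was the member with the fewest reads, 29 to 144 per library, and its 3′ end shares 263 exonic bases with Nr1d1, the gene of a heme-binding clock repressor on the opposite strand. Nr1d1 had a mean of 464 ± 173 (SD, n = 6) in GF and of 718 ± 239 in CV livers. It was 0.65 ± 0.24 higher in CV over both sexes (limma adjusted p = 0.0255), opposite in direction to Thra. Nr1d1 ranged from 294 to 500 in GF males and from 551 to 1199 in CV males. The females overlapped, at 362 to 786 in GF and 642 to 662 in CV. This call was not checked under the alternatives or without the library labelled CV male 3. The libraries were made with a stranded kit, but whether strand was used in counting is not given in the sources used here, so the share of Thra reads that came from Nr1d1 was not tested. Markers of cells other than hepatocytes also differed between the conditions: all 4 tested lymphocyte markers were lower in CV, and their summed value was 313 to 604 in GF and 70.3 to 155 in CV livers. Of 6 endothelial markers, 2 were lower in CV and 0 higher, with sums of 1101 to 2655 in GF and 503 to 1431 in CV livers. Of 5 erythroid markers, 4 were lower and 0 higher, with sums of 2777 to 32885 and 916 to 3159. Macrophage markers went the other way, with 3 of 6 higher and 0 lower and sums of 737 to 1497 in GF and 810 to 1813 in CV livers. Stellate cell markers had 1 higher and 1 lower of 6 (sums of 1389 to 2915 and 1542 to 2882), and 0 of 5 cholangiocyte markers were called (453 to 1059 and 527 to 1616). Among all genes tested 32.3% were called higher and 28.7% lower. The part of these cells in the Thra values was not tested.

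Thrb (ENSMUSG00000021779, chr14:17660261-18038090, forward strand) overlapped between the conditions. Its normalized read counts were 241, 323 and 173 in GF males and 228, 144 and 195 in CV males. In females they were 205, 234 and 153 in GF and 177, 153 and 182 in CV. No condition stood apart in either sex, with CV minus GF at -0.36 ± 0.27 in males and -0.19 ± 0.27 in females. The difference over both sexes was -0.27 ± 0.19 on the deposited scale and 0.28 when libraries were scaled to all reads, which moved the median of all genes from 0.07 to 0.62. Relative to that median Thrb was at -0.35 and -0.34. After removal of a trend on length and GC content it was at 0.12 relative to the median.

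The entry and carriage of hormone were represented by Slc16a10 and Ttr. Slc16a10 encodes MCT10, a carrier of aromatic amino acids and of thyroid hormones (ENSMUSG00000019838, chr10:40033532-40142258, reverse strand). Its normalized read counts were 355, 333 and 325 in GF males and 319, 423 and 571 in CV males. In females they were 121, 311 and 215 in GF and 371, 300.3 and 327 in CV. The conditions overlapped in both sexes. CV minus GF was 0.33 ± 0.30 in males and 0.72 ± 0.30 in females. The highest CV male value belonged to the library labelled CV male 3, and without it the male difference was 0.12.

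Ttr encodes transthyretin, a plasma carrier of thyroxine and of retinol binding protein that hepatocytes secrete in large amounts (ENSMUSG00000061808, chr18:20665280-20674321, forward strand). Its normalized read counts were 25009, 61760 and 33411 in GF males and 45265, 54714 and 70795 in CV males. In females they were 21773, 31395 and 9659 in GF and 46537, 64935 and 61026 in CV. Males overlapped, since GF male 2 exceeded 2 of the CV males, whereas each CV female exceeded each GF female, as for 34% of genes tested. CV minus GF was 0.59 ± 0.50 in males and 1.60 ± 0.50 in females, the largest errors among the members. Without the library labelled CV male 3 the male difference was 0.42.

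Set against all genes, Dio1 stood outside the range that held 9 in 10 genes and the other members stood inside it. Over both sexes the 5th and 95th percentiles of all genes tested were -1.91 and 1.59, and the median was 0.07. Of the members, 4 were higher in CV (Dio1, Ttr, Klf9 and Slc16a10, from 2.61 to 0.53) and 2 were lower (Thra at -0.66 and Thrb at -0.27). Among all genes tested, limma at an adjusted p of 0.05 called 32.3% higher and 28.7% lower in CV, and this background is given without a count of the members because the members were chosen on the same contrast.

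**Figure D2:**
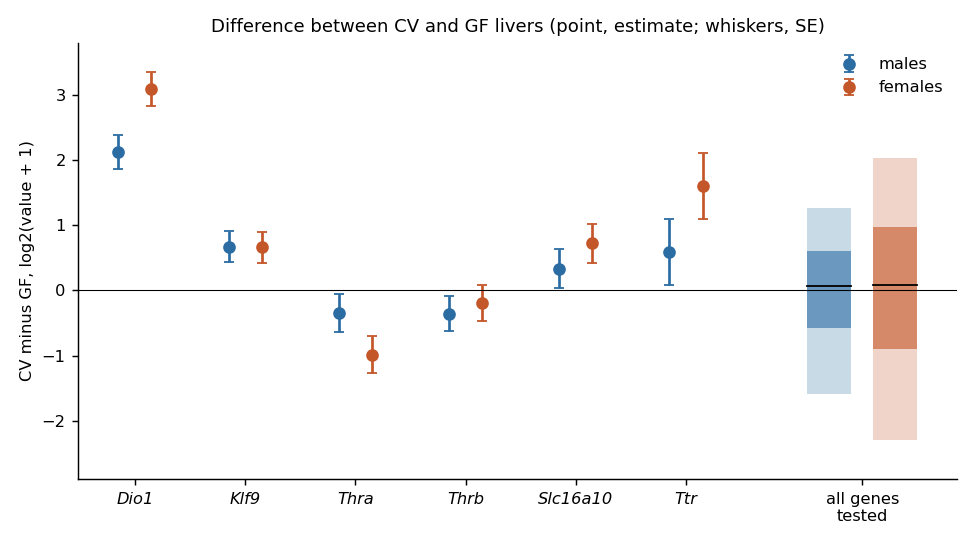
CV minus GF on the log2(value + 1) scale for each member in males and in females (points, with SE), beside all 11782 genes tested (dark boxes, 25th to 75th percentile; pale boxes, 5th to 95th; lines, median). Dio1 lies above the pale box in both sexes, at 2.12 and 3.09, and Thrb lies near 0.

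Per kilobase of exon, the members kept 1 order by their means in both conditions: Ttr, Dio1, Klf9, Slc16a10, Thrb and Thra. In CV livers the mean values per kb were 48240 for Ttr, 1253 for Dio1, 214 for Klf9, 52.4 for Slc16a10, 24.3 for Thrb and 13.1 for Thra. In GF livers they were 25718, 211, 137, 37.6, 29.9 and 20.4 in that order. Library by library, Dio1 exceeded Klf9 in 6 of 6 GF livers, with ratios from 1.11 to 2.51, and in 6 of 6 CV livers, with ratios from 4.71 to 6.64. The neighbours Slc16a10 and Thrb crossed in GF livers, where Slc16a10 was higher in 5 of 6 (37.6 ± 12.3 and 29.9 ± 8.15, SD, n = 6), and kept their order in 6 of 6 CV livers. Thrb and Thra crossed in both conditions, with Thrb higher in 5 of 6 GF livers (29.9 ± 8.15 and 20.4 ± 3.63) and in 5 of 6 CV livers (24.3 ± 4.09 and 13.1 ± 4.16).

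Ratios of genes within a library do not depend on the library's scaling. They can still carry a trend on length or GC content. With that trend removed, CV minus GF over both sexes was 2.09 for Dio1 and 0.24 for Thrb. On the deposited scale these were 2.61 and -0.27. The ratio of Dio1 to Thrb per kb was 6.15, 6.56 and 12.2 in GF males and 43.6, 46.0 and 43.0 in CV males. In females it was 5.58, 6.79 and 6.11 in GF and 51.7, 69.5 and 60.2 in CV. The CV ratios all lay above the GF ratios, and their means were 52.3 ± 10.6 and 7.23 ± 2.48 (SD, n = 6). The ratio of Thrb to Thra per kb averaged 1.55 ± 0.64 in GF and 2.03 ± 0.78 in CV livers and overlapped between them.

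The ratio of Ttr to Alb, the gene of the other abundant plasma carrier, overlapped between the conditions and differed between the labelled sexes. Per kb it was 0.642, 0.635 and 0.675 in GF males and 0.475, 0.770 and 0.616 in CV males. In females it was 0.382, 0.437 and 0.406 in GF and 0.422, 0.460 and 0.457 in CV. All 6 libraries labelled male lay above all 6 labelled female, including the library labelled CV male 3 at 0.616. The means were 0.529 ± 0.135 (SD, n = 6) in GF and 0.533 ± 0.134 in CV livers. In an exact permutation test (two-sided, sex labels exchanged within each condition), the male minus female difference of 0.56 (log2) had p = 0.005, the smallest value that its 400 relabellings allow. Adjusted over the 3 ratios tested, this exact p was 0.015, and the other ratios gave p = 1 (Thrb to Thra) and p = 0.885 (Dio1 to Thrb). Without the library labelled CV male 3 the difference was 0.56, again with an exact p of 0.005 and an adjusted p of 0.015. The ratios were chosen after the members' values had been seen. Within GF, the share of the abundant loci was 41.8 to 51.7% in males and 58.2 to 69.4% in females. In CV it was 5.39, 21.4 and 21.9% in males and 5.75 to 7.96% in females. In GF the males had the lower shares and the higher ratios. The CV male at 5.39% had a ratio of 0.475, and those at 21.4 and 21.9% had 0.770 and 0.616. The part of this share in the Ttr to Alb ratio was not tested.

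**Figure D3:**
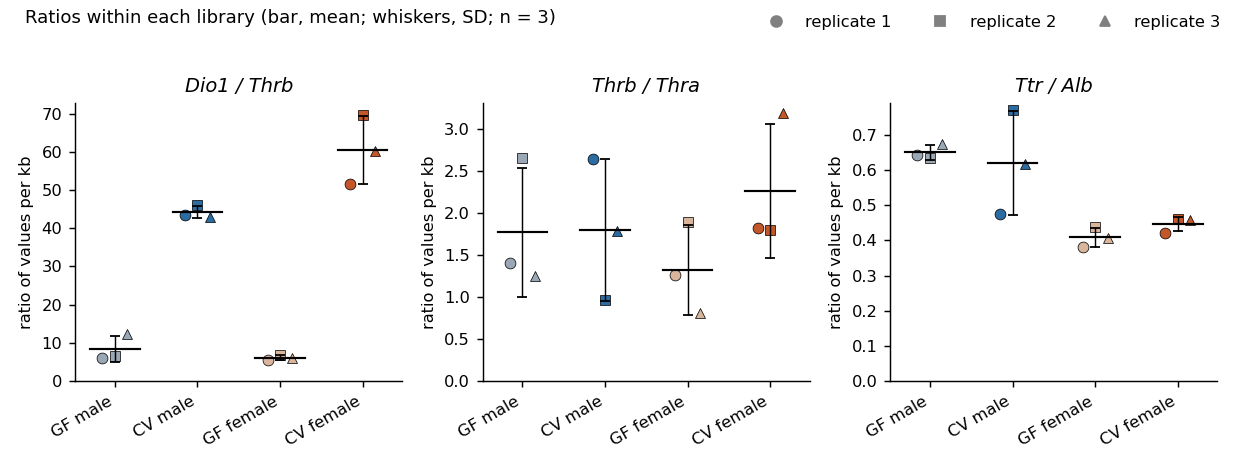
Ratios of values per kb of exon within each library (vertical axes start at 0), with the mean and SD of each group of 3. Dio1 to Thrb is 5.58 to 12.2 in GF and 43.0 to 69.5 in CV livers, and Ttr to Alb is 0.475 to 0.770 in libraries labelled male and 0.382 to 0.460 in those labelled female.

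The difference between males and females had no part in the choice of the members and was tested. No member passed an adjusted p of 0.05 in limma: 0 of 6 over both conditions, in GF or in CV livers, against 1.16%, 1.63% and 0.0594% of all genes. At an unadjusted p under 0.05 limma found 1, 2 and 0 of 6, and edgeR and DESeq2 also called 0 in each comparison, with 1, 2 and 0 and with 1, 3 and 0 at an unadjusted p under 0.05. The largest differences were in GF livers. Slc16a10 was 0.75 ± 0.30 higher in GF males than in GF females (limma adjusted p = 0.21), with all 3 males above all 3 females, which 18.7% of genes showed in 1 direction or the other. Dio1 was 0.65 ± 0.26 higher in GF males (limma adjusted p = 0.206) with overlap, and Ttr 0.99 ± 0.50 (limma adjusted p = 0.318). In CV livers the same differences were 0.36 ± 0.30 for Slc16a10, -0.31 ± 0.26 for Dio1 and -0.02 ± 0.50 for Ttr. Without the library labelled CV male 3 they were 0.15, -0.33 and -0.19. Scaled to all reads, these 3 genes passed in GF (limma adjusted p = 0.0175 for Slc16a10, 0.0202 for Dio1 and 0.045 for Ttr). Over the 24 alternatives the highest adjusted p of these genes was 0.544, 0.675 and 0.731. Leaving out GF female 2, Slc16a10 alone passed there, with 1.06 and a limma adjusted p of 0.0423. The difference of the CV effect between males and females, -0.97 ± 0.37 for Dio1 and -1.01 ± 0.71 for Ttr, uses the same contrast as the choice of the members and is given without a test.

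Other genes of the pathway were read from a list of 49 in 6 roles beside the deiodinases, of which 45 passed the filter. The other 2 deiodinases were near or at 0. Dio2, which also activates thyroxine, had 0 of 114127806 reads in all 12 libraries, which allows a share of up to 2.63e-06%, and Dio3, which inactivates both hormones, had 22 reads in 7 libraries. Slco1c1, a thyroxine transporter of the brain barrier, and Hr, a target known from brain and skin, had 14 and 74 reads. Over both sexes, limma called 18 of the 45 higher (background 32.3%) and 11 lower (background 28.7%) in CV livers. In males 7 rose and 11 fell, against backgrounds of 14.1% and 15.4%. In females 15 rose and 12 fell, against 29.8% and 26%. The median of the list was 0.24 and that of all genes 0.07.

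Transporters and carriers changed in part. Of 8 transporters, 3 rose in CV and 0 fell over both sexes, against backgrounds of 32.3% and 28.7%. Slc10a1, the bile acid carrier NTCP that also takes up sulfated thyroid hormones, rose by 1.86 ± 0.22 (limma adjusted p = 4.60e-06), from 972 to 2490 in GF to 3112 to 7247 in CV livers. No CV liver overlapped a GF liver for Slc10a1, and 18.6% of genes tested had CV above GF without overlap in each sex. Slc3a2, the heavy chain that partners Slc7a5 and Slc7a8, rose by 1.17 ± 0.18 (limma adjusted p = 4.50e-05). The organic anion carrier Slco1a4 was lower in CV females, with CV minus GF at -1.14 ± 0.45 (limma adjusted p = 0.043), and Slc7a5 was at -1.16 ± 0.41 in males (limma adjusted p = 0.0421). These calls were lost under 10 of 24 and 13 of 23 alternatives (adjusted p from 0.0114 to 0.963 and from 0.0243 to 0.304). The Slco1a4 call was lost without GF male 3, GF female 1 or 3 or any CV female, and the Slc7a5 call without any 1 male, the library labelled CV male 3 included, or any 1 CV female. Among the plasma carriers, Serpina7, thyroxine binding globulin, rose by 1.64 ± 0.32 (limma adjusted p = 3.35e-04) and Alb by 1.08 ± 0.45 (limma adjusted p = 0.0464). The Alb call was lost under 13 of 24 alternatives (adjusted p from 3.64e-04 to 0.58), among them leaving out the library labelled CV male 3, GF male 1 or 3, GF female 1 or 3 or any CV female. Crym, a cytosolic binder of triiodothyronine, was at -0.68 ± 0.34 (limma adjusted p = 0.0991).

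Of the genes that conjugate the hormone for excretion, 3 of 4 rose over both sexes, against a background of 32.3%. In males 1 of 4 rose and in females 3 of 4, against backgrounds of 14.1% and 29.8%. Ugt1a1, a glucuronosyltransferase of bilirubin and thyroxine, went from 59.5 to 119 in GF to 161 to 702 in CV livers, a rise of 2.22 ± 0.27 (limma adjusted p = 5.75e-06). Ugt1a9 rose by 2.41 ± 0.49 (limma adjusted p = 5.00e-04) and Sult1b1, a thyroid hormone sulfotransferase, by 0.73 ± 0.20 (limma adjusted p = 0.00563). Neither was called in males alone, and Ugt1a9 ranged from 18.2 to 215 in CV males. Scaled to reads outside the abundant loci, 2 of the 4 rose and the Sult1b1 call was lost. Ugt1a1 and Ugt1a9 share their downstream exons, so their reads may have been split between them. Of the retinoid X receptors, which pair with the thyroid receptors on DNA, Rxra rose by 0.54 ± 0.17 and Rxrg by 0.81 ± 0.31 (limma adjusted p = 0.0128 and 0.0297), and Rxrb was at 0.22 ± 0.19 (limma adjusted p = 0.325). The Rxrg call was lost under 11 of 23 alternatives (adjusted p from 0.00134 to 0.874), edgeR, DESeq2 and leaving out the library labelled CV male 3, GF male 2, GF female 1 or CV female 1 or 3 among them. Scaled to reads outside the abundant loci, neither Rxra nor Rxrg was called.

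Of 13 coregulators, 10 fell and 1 rose over both sexes, against backgrounds of 28.7% and 32.3%, and the median was -0.91. Ppargc1a, the coactivator PGC-1α, fell most, from 234 to 565 in GF to 60.4 to 104 in CV livers, a change of -2.36 ± 0.20 (limma adjusted p = 4.86e-07). The corepressor Ncor1 changed by -0.98 ± 0.17 (limma adjusted p = 1.07e-04), and the coactivators Ncoa3 and Ep300 by -1.46 ± 0.18 and -1.17 ± 0.17 (6.13e-06 and 2.23e-05). Ncor1 and these coactivators thus fell in the same livers on the deposited scale. The Ncor1 and Ep300 calls were lost after removal of the length and GC trend, and the Ncor1 call also when libraries were scaled to all reads. Tbl1x, a subunit of the corepressor complex, rose by 0.46 ± 0.16 (limma adjusted p = 0.02), a call lost without CV female 1 and turned in direction when libraries were scaled to reads outside the abundant loci (adjusted p from 2.88e-04 to 0.998 over 24 alternatives). These counts moved with the processing. After removal of a trend on length and GC content per library, 4 fell and 2 rose, with a median of -0.04, and with libraries scaled to all reads 5 fell and 3 rose.

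Among 14 textbook targets of the hormone, 7 rose and 1 fell over both sexes, against backgrounds of 32.3% and 28.7%. Scaled to all reads, 11 rose and 0 fell, and scaled to reads outside the abundant loci, 3 rose and 2 fell. Me1, malic enzyme, rose by 1.79 ± 0.26 (limma adjusted p = 2.38e-05), from 136 to 367 in GF to 633 to 1659 in CV livers. Thrsp, the lipogenic regulator Spot 14, rose by 1.63 ± 0.40 (limma adjusted p = 0.00206), with ranges of 518 to 3479 and 2641 to 6454 that overlapped. Bcl3 and Fgf21 rose by 1.07 ± 0.24 and 1.21 ± 0.39 (limma adjusted p = 0.00123 and 0.0133). Acaca, the acetyl-CoA carboxylase of lipogenesis, fell by 0.75 on the log2 scale (SE 0.16, limma adjusted p = 6.62e-04), and its direction turned after removal of the length and GC trend. G6pc, glucose-6-phosphatase, and Cyp7a1, the first enzyme of bile acid synthesis, moved in males. G6pc was -1.59 ± 0.33 in males (limma adjusted p = 0.0036) and 0.70 ± 0.33 in females (0.085). Cyp7a1 was 1.18 ± 0.36 in males (0.0232) and -0.83 ± 0.36 in females (0.0596). The Cyp7a1 call in males was lost under 5 of 24 alternatives (adjusted p from 0.00477 to 0.478), among them leaving out GF male 1, GF male 3 or CV male 1. The difference between the sexes itself passed for 0 of the 45 genes in limma (8 at an unadjusted p under 0.05; 0 of all 11782 genes), in edgeR for 0 and in DESeq2 for 1, G6pc, with an adjusted p of 0.00127 against 0.417 in limma (0.00127 to 0.752 over 24 alternatives).

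**Figure D4:**
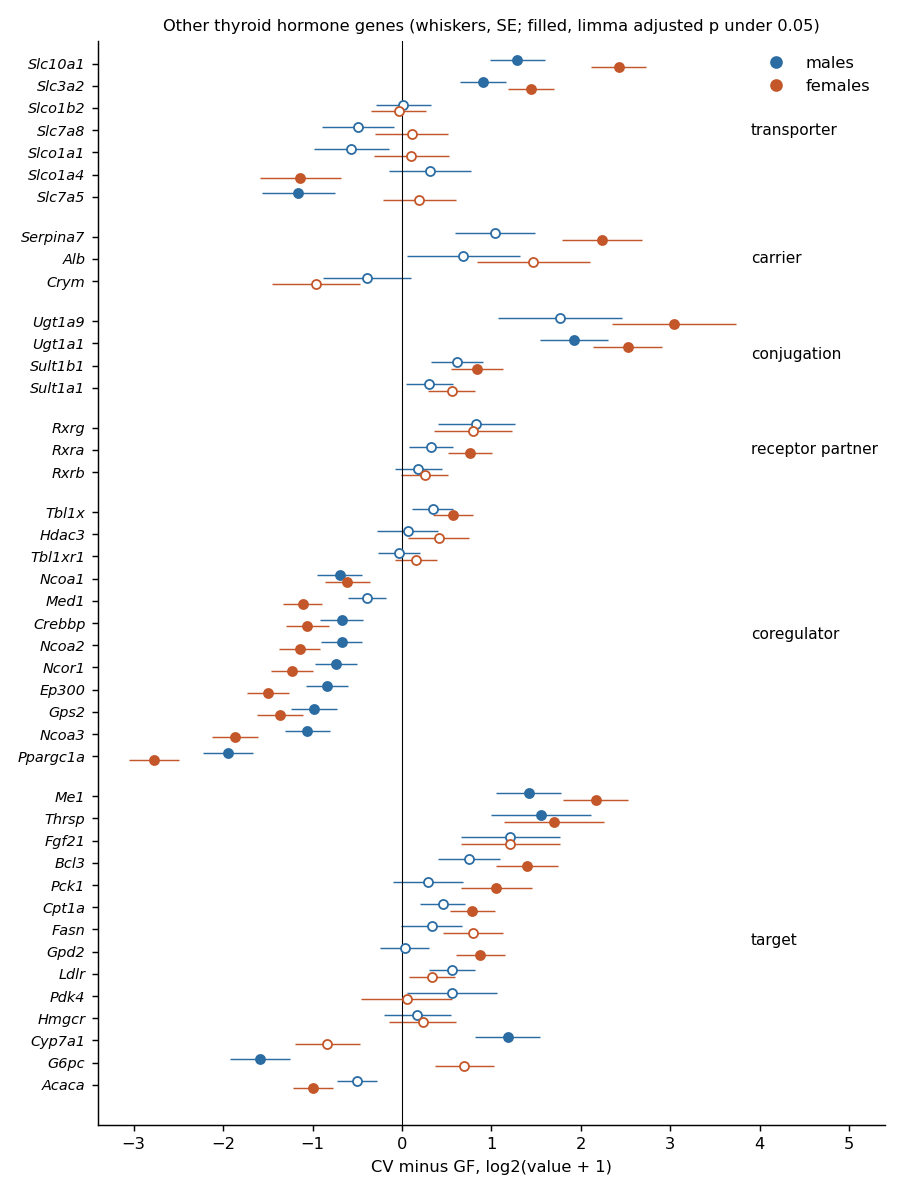
CV minus GF on the log2(value + 1) scale, with SE, for 43 of the 45 tested pathway genes that are not members, grouped by role, in males and in females. Filled points passed limma at an adjusted p of 0.05. Most coregulators lie left of 0, from Ppargc1a at -1.94 and -2.77, and Slc10a1, Ugt1a1 and Me1 lie right of it in both sexes.

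Between the sexes, few of the 45 genes passed. Slco1a4 was lower in males over both conditions, with male minus female at -1.74 ± 0.32 (limma adjusted p = 0.00866), and its values in GF livers were 62.5 to 191 in males and 367 to 1171 in females. In CV livers its values were 97.8 to 273 in males and 247 to 353 in females, which overlapped, and limma did not call it there. G6pc was 1.65 ± 0.33 higher in GF males (limma adjusted p = 0.02) and Cyp7a1 2.09 ± 0.36 higher in CV males (limma adjusted p = 0.045). Without the library labelled CV male 3, Cyp7a1 was 2.21 higher (limma adjusted p = 0.00971), and 3 genes passed over both conditions in place of 1, Slco1a1 and Cyp7a1 in addition to Slco1a4. Over 24 alternatives the adjusted p was 1.01e-04 to 0.0351 for Slco1a4, 8.67e-05 to 0.201 for G6pc and 8.40e-04 to 0.26 for Cyp7a1 in these comparisons. The Cyp7a1 call in CV was lost under 15 of the 24. Among these were leaving out any 1 GF library, CV male 1 or 2 or CV female 1 or 3.

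Because the Dio1 product is a selenoprotein, the other selenoproteins and the factors that make them were read too. Of 27 listed, 26 passed the filter (Gpx2 had 8 reads), and over both sexes 18 rose and 1 fell in CV livers, against backgrounds of 32.3% and 28.7%. In males 8 rose and 1 fell (backgrounds 14.1% and 15.4%), and in females 16 rose and 2 fell (backgrounds 29.8% and 26%). The median was 0.74. Among the 19 selenoproteins proper, 14 rose and 0 fell at limma's threshold. Gpx4, the lipid peroxide glutathione peroxidase, rose by 2.05 ± 0.25 (limma adjusted p = 5.43e-06), from 171 to 734 in GF to 1390 to 1924 in CV livers. Gpx1 and the plasma carrier Selenop rose by 1.83 ± 0.26 and 1.78 ± 0.29 (limma adjusted p = 2.40e-05 and 6.92e-05), and Sephs2, the selenophosphate synthetase, by 1.91 ± 0.26 (1.37e-05). Secisbp2, which binds the selenocysteine insertion element of their mRNAs, fell from 262 to 554 in GF to 74.4 to 97.0 in CV livers, a change of -2.05 ± 0.20 (limma adjusted p = 1.00e-06). With libraries scaled to reads outside the abundant loci, 10 rose and 3 fell. In a fit with the mitochondrial ribosomal RNA share as a covariate, 0 passed in this list, in the pathway list and among all 11782 genes.

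Of 8 other Klf genes measured beside Klf9, 2 rose over both sexes and 1 fell, against backgrounds of 32.3% and 28.7%. Klf11 rose by 0.97 ± 0.24 (limma adjusted p = 0.00262) and Klf3 changed by -0.52 ± 0.14 (limma adjusted p = 0.00478), with the direction turned when libraries were scaled to all reads. Klf10 rose by 0.73 ± 0.18 (limma adjusted p = 0.00234), with 1.50 ± 0.25 in males and -0.04 ± 0.25 in females. Its values in GF livers were 66.5 to 120 in males and 210 to 242 in females.

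Scaling moved all members in step. Scaled to all reads, the median of all genes was 0.62 instead of 0.07, and scaled to reads outside the abundant loci it was -0.38. Dio1 was then 3.17 and 2.15, and Klf9 1.22 and 0.20. After removal of the length and GC trend, Dio1 was 2.09 and the median of all genes 0.12. Dio1 was the member with the greatest difference in these fits, and in the fit with the ribosomal share as a covariate Ttr exceeded it, at 2.49 against 2.29.

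**Figure D5:**
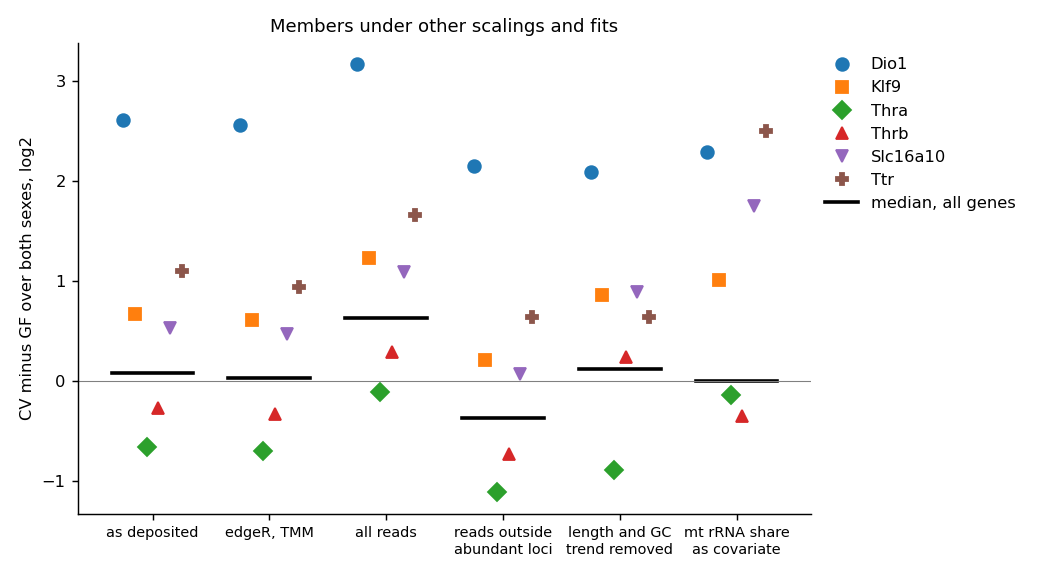
CV minus GF over both sexes (log2) for the 6 members under the deposited scaling and 5 other scalings or fits, with the median of all genes as a black line. Dio1 lies between 2.09 and 3.17, and Thrb lies on either side of 0, from -0.73 to 0.28.

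The genes whose pattern was most like each member's were ranked by Pearson's r of log2(value + 1) over the 12 libraries among 11111 tested genes with an established symbol. For Dio1 they were Tmem9 (r = 0.994), Sdhd (0.993) and Ctsz (0.992), for Klf9 Npc2 (0.975), Ccl9 (0.970) and Snx5 (0.970), and for Ttr Edf1 (0.993), Atp6v1f (0.991) and Fabp1 (0.991). Thra was most like Pdzd2 (0.953), Slc16a10 most like March6 (0.921) and Thrb most like Nbn (0.892). These values carry any difference between the conditions, and limma called 61.1% of genes tested in 1 direction or the other. In deviations from the 4 group means they were Ormdl2 for Dio1 (0.981), Psma4 for Klf9 (0.993), Krtcap2 for Ttr (0.994), Rrnad1 for Thra (0.969), Muc1 for Slc16a10 (0.941) and H1f0 for Thrb (0.948). Between members, r over the libraries was 0.89 for Dio1 and Klf9, 0.80 for Dio1 and Ttr and -0.82 for Dio1 and Thra. Within groups these were 0.72, 0.68 and -0.86. The libraries share depth and the abundant loci, and no test was made of these correlations.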

How the data were processed

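Liver RNA from 12 mice was sequenced on an Illumina HiSeq from libraries of a stranded mRNA kit, per the labels. The submitters' processing notes name HTSeq 0.6.1p1, DESeq2 and build GRCm38, and the aligner is not given in the sources used here. The deposited values are a normalized signal: the authors divided the read counts of each library by 1 size factor. All values (100%) were whole multiples of 1 read within 0.01 reads, so reads could be recovered. The paper supplied with the series describes a brain experiment, and nothing was taken from it but style.

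Symbols came from the table, and coordinates, exon lengths and overlaps from GENCODE mouse release 21, which listed 40254 of the 41128 genes. Each library's group and number were read from its title. The main test was limma 3.58.1 (R 4.3.3) on log2(value + 1) for genes with a mean value of at least 10, with 4 group means (condition by labelled sex), a trended prior variance and Benjamini-Hochberg adjustment over 11782 genes at a threshold of 0.05. The pseudocount makes fold changes of low genes too small. Alternatives were edgeR 4.0.16 with TMM factors, DESeq2 1.42.0 and limma-voom on the recovered reads, other pseudocounts, filters, scalings and thresholds, removal of a loess trend (span 0.5) on exon length and GC content, a covariate, the replicate block and each library left out in turn. The script was tested on simulated counts. The members, lists, tests and named genes were chosen with earlier results of these data known. The named genes are the members, any gene of the pathway, selenoprotein and Klf lists, genes overlapping a member and the 3 genes most like each member. Values of 2 genes of the pathway list, which its counts include, are not reported here. Genes of an antisense partner or a shared exon are uncertain in number. Labels name separate mice, and no label gives a batch. The pairs of libraries within groups differed by more than counting noise (the lowest chi-square per degree of freedom was 13.6). Same-numbered libraries deviated together (r over 0.1) in 5 of 18 pairs, so the numbers were not taken to pair the mice, except between CV males and CV females, where all 3 pairs had r from 0.118 to 0.193; there the block changed no call of a member or a pathway gene. Upper limits on read shares cover counting error only, whereas SEs and SDs carry the spread between libraries.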

Additional observations from a re-analysis of the deposited data

How the results depend on the processing

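Rescaling, trend removal and the covariate moved the results most, and the cause was not tested. Scaled to all reads, CV minus GF was 3.17 for Dio1, 1.22 for Klf9, 1.09 for Slc16a10, -0.11 for Thra, and 0.28 for Thrb over both sexes and 0.61 in females, both reversed. Pathway genes called were then 27 higher and 3 lower in females, 13 and 3 in males and 5 lower over both sexes, 16 selenoprotein genes were higher in males and 1 lower in females, and the sex tests called 3 members and 6 pathway genes in GF, 2 pathway genes over both conditions and 1 for the difference of the condition effect. Scaled to reads outside the abundant loci, Dio1 was 2.15, Klf9 0.20, Slc16a10 0.068, Thra -1.12 and Thrb -0.73, with 9, 3 and 7 pathway genes higher over both sexes, in males and in females, 10, 4 and 7 selenoprotein genes higher, 3 selenoprotein genes lower over both sexes and 0 pathway genes called between the sexes in CV. With the length and GC trend removed, Dio1 was 2.09, and Thrb reversed to 0.24 over both sexes, 0.020 in males and 0.46 in females, with 6, 4 and 4 pathway genes lower, 2 and 1 selenoprotein genes lower over both sexes and in females, and 0 called between the sexes in CV. With the mitochondrial ribosomal RNA share as covariate, Dio1 was 2.29, Klf9 1.01, Slc16a10 1.75, Thra -0.14 and Ttr 2.49, 0 genes of either list passed in any condition comparison, 0 pathway genes passed between the sexes in GF and in CV, and 2 did over both conditions. This share does not overlap between the conditions (9.36 to 16.4% in GF and 1.39 to 6.32% in CV).

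DESeq2 called 2 selenoprotein genes lower, 4 pathway genes between the sexes in GF, 4 over both conditions and 1 for the difference of the condition effect. edgeR and limma-voom each called 2 selenoprotein genes lower. At an adjusted p of 0.01, 11, 2 and 8 pathway genes were higher over both sexes, in males and in females, 4 lower in males, 2 selenoprotein genes higher in males and 1 lower in females, and 0 pathway genes passed between the sexes in GF and in CV. Without the filter, 5 selenoprotein genes were higher in males, 1 lower in females and 0 pathway genes passed between the sexes in CV. With pseudocount 0.5 that last count was 0, and with pseudocount 5, or a minimum mean of 50, 2 pathway genes passed between the sexes over both conditions.

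The replicate block gave 2 pathway genes between the sexes over both conditions in place of 1, and no other count of calls on the lists moved by over 1.5 times. The correlations of same-numbered libraries ranged from -0.23 to 0.40, and 6 of 12 libraries correlated best with their own number.

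Leaving out each library in turn gave, over both sexes, 13 to 20 pathway genes higher and 11 to 12 lower, and 17 to 20 selenoprotein genes higher and 1 to 2 lower. In males these were 3 to 8, 4 to 11, 2 to 10 and 1, and in females 10 to 17, 10 to 13, 12 to 17 and 1 to 2. Between the sexes 1 to 3 pathway genes passed over both conditions, 0 to 3 in GF and 0 to 2 in CV, 0 to 1 for the difference of the condition effect, and 0 to 1 members in GF. The male counts were lowest without GF male 1 (4 pathway genes higher, 4 lower and 2 selenoprotein genes higher), GF male 3 (3, 5 and 5) and CV male 1 (3 pathway genes higher and 7 lower). The G6pc and Slco1a4 sex calls in GF were lost without GF male 2 or GF female 3. CV minus GF ranged from 2.52 to 2.71 for Dio1, 0.59 to 0.75 for Klf9, -0.77 to -0.55 for Thra, -0.39 to -0.16 for Thrb, 0.35 to 0.69 for Slc16a10 and 0.86 to 1.28 for Ttr. Depth limits Thra most (29 reads in 1 library).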
